A study of Mus musculus with 12 samples.

Results

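The 10 genes listed here, which mark or build the urogenital ridge and the adrenal precursor, the tissues from which kidney, gonad and adrenal cortex arise, were followed in whole mouse embryos at stage E10.5. The genes were Wt1, Osr1, Pax2, Pax8, Eya1, Sall1, Gdnf, Ret, Nr5a1 and Nr0b1, chosen by name because these tissues are affected in acd mutants. A gene was measured where the platform annotation gave a probe set its symbol alone, which held for 9 of the 10 listed genes, with 15 probe sets, out of 18193 genes in all. Pax2 was not analysed here. Where a gene had several probe sets, the one with the highest average signal stands for it, and the others are named where they differed.

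The 12 embryos fell into 4 genotypes of 3: double mutants (Acdacd/acd, p53-/-), acd mutants (Acdacd/acd), p53-/- embryos and wild type (wt). The genotypes are called double, acd, p53 and wt from here on. RNA was labelled from 250 ng per sample and hybridised to Affymetrix 3' expression arrays, 1 array per embryo. The labels call the replicates biological, describe neither allele, and do not give strain or litter. All values are log2 expression values from robust multi-array averaging (RMA), so a difference of 1 is a doubling on that scale. Because whole embryos were extracted, fewer cells of a type and less RNA per cell cannot be told apart.

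The urogenital ridge forms from intermediate mesoderm and the overlying coelomic epithelium. Osr1 and Pax-family factors act early in that mesoderm, Wt1, Eya1 and Sall1 act in the mesenchyme that will form the nephrons, and Gdnf released by this mesenchyme draws out the ureteric bud through its receptor Ret. Nr5a1 and Nr0b1 are nuclear receptors of the adrenogonadal primordium, the shared precursor of adrenal cortex and gonad. Acd encodes the telomere protein TPP1, a component of shelterin, and the acd allele is named for adrenocortical dysplasia. Most of these genes are also active elsewhere in the embryo, Ret in enteric neural crest and Eya1, Pax8 and Sall1 in sensory placodes, brain or limb, so a whole-embryo value is not a measure of the urogenital ridge alone.

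Promoter entries were found in the RefSeq table (build GRCm38.p6) for 4 of the 9 measured genes. Sall1 was among 5 of the 9 genes lowest in double replicate 1, where 30.4% of all tested genes were lowest. Gdnf, which also had a promoter entry, was another of the 5. The 3 double values of Nr0b1 lay below every acd and wt value, while p53 replicates 1 and 2 were as low. Groups were apart in 11.3% of all tested genes in double against acd and in 13.2% in double against wt. The promoters of Sall1 and Nr0b1 were picked for these values and are shown. Each runs 5′ to 3′ from 250 bases before the start to 50 after it, Sall1 at chr8:89044113-89044412 on the minus strand, which is the first of its listed starts, and Nr0b1 at chrX:86191525-86191824 on the plus strand. Capitals mark the matches found for TATAAA or CCAAT, searched on both strands.
Sall1: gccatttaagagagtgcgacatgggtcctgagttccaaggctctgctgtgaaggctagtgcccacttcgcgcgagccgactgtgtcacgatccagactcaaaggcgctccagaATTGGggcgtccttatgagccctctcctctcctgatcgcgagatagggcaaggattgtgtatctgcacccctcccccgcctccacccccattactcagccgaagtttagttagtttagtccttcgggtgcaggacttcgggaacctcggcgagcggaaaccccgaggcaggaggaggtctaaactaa
Nr0b1: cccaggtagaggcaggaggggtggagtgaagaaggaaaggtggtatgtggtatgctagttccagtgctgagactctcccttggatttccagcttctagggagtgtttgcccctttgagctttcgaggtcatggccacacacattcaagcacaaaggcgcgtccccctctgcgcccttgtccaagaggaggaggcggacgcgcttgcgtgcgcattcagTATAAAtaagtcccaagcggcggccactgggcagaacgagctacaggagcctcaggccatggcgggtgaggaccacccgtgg
The Sall1 window held CCAAT on the reverse strand, beginning 137 bases before the start, while the windows of its other listed starts held neither motif. The Nr0b1 window held TATAAA on the forward strand, beginning 32 bases before it. TATAAA was present in 13.6% and CCAAT in 37.4% of the 32851 promoter windows in the table. The motifs do not overlap each other, and a match is a description of these letters only. The arrays measured transcript levels and carry no information on promoter use.

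The Acd probe set was checked first. Acd read 8.44, 8.42 and 8.24 in double embryos, 8.27, 8.31 and 8.22 in acd embryos, 8.84, 8.85 and 9.05 in p53 embryos, and 8.999, 8.995 and 8.988 in wt embryos. All 6 embryos labelled as homozygous for acd lay below all 6 others. Acd was lower by a log2 difference of -0.73 ± 0.08 (SE) in acd against wt (limma adjusted p = 0.0113) and by -0.63 in double against wt (limma adjusted p = 0.0492), while the -0.55 of double against p53 did not pass (limma adjusted p = 0.183).

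Double replicates 1 and 2 stood apart from the other arrays. Their median correlation with the other arrays was 0.972 and 0.987, against 0.995 or more for the other 10. The mean of an interferon-response list exceeded its wt mean by 3.44 and 3.20 in these embryos and by 0.23 in double replicate 3, that of a macrophage list by 1.41, 0.95 and -0.20, and that of a visceral endoderm and liver list by 1.75, 1.41 and 0.34, in replicates 1, 2 and 3. Over the other 9 embryos these list means ran from -0.03 to 0.31 for interferon response, from -0.23 to 0.17 for macrophage, and from -0.15 to 1.15 for visceral endoderm and liver, where p53 replicate 2 was the highest of the 9 and the acd embryos lay at 0.42, 0.30 and 0.32. Of these lists, 8 of 8, 12 of 12 and 10 of 10 tested genes were higher in double against wt, and none passed limma's adjusted threshold. Judged from Y-linked genes and Xist, 1 of 3 double, 3 of 3 acd, 3 of 3 p53 and 1 of 3 wt embryos were male, so genotype and sex were not balanced. The part of these features in the results that follow was not tested.

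**Figure D1:**
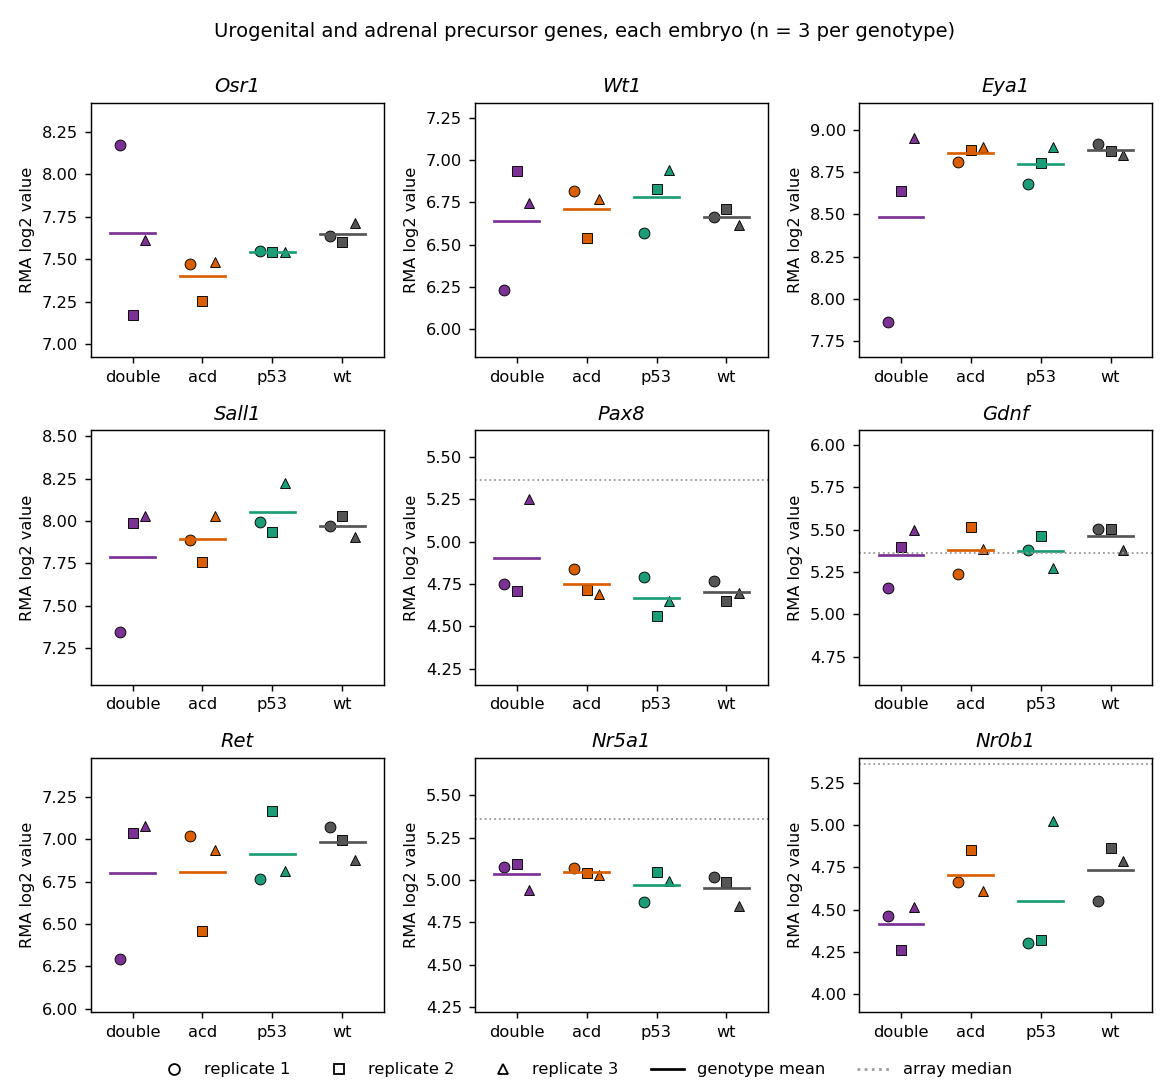
RMA log2 values of the 9 genes in each embryo (y axis) by genotype (x axis); symbols give the replicate, coloured bars the mean of 3 embryos, and the dotted line the array median where it falls within the axis. The y axes cover the same span of log2 units in every panel, each centred on its own gene's values. Double replicate 1 lies below the other arrays for Eya1 (7.86), Sall1 (7.35), Ret (6.29) and Wt1 (6.23).

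Levels were first set against each array's own median, 5.32 to 5.40 on the 12 arrays. Eya1, Sall1, Osr1, Ret and Wt1 lay above the array median in all 12 embryos. Gdnf lay above it in 8 of 12, and Pax8, Nr5a1 and Nr0b1 lay below it in all 12. Means of 18 genes known from mature kidney, adrenal or germ cells ran from 3.17 to 6.21, with a median of 3.88, so a value inside that span is not shown here to lie above background. Background can compress differences of Gdnf, Pax8, Nr5a1 and Nr0b1, and the differences given for them below carry this limit. All 9 genes passed the filter on low values (above the 40th percentile of an array in at least 3 arrays), Pax8 with 10 arrays above it and Nr0b1 with 5.

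Eya1, a transcriptional coactivator and phosphatase needed for the kidney mesenchyme, read 7.86, 8.64 and 8.95 in double embryos, 8.81, 8.88 and 8.90 in acd embryos, 8.68, 8.80 and 8.90 in p53 embryos and 8.91, 8.87 and 8.85 in wt embryos. The double embryos ranged over 1.09, against 0.23 over the other 9 embryos together, with double replicate 1 the lowest of the 12 arrays and replicate 3 the highest. The mean was 8.48 ± 0.56 in double and 8.88 ± 0.03 in wt (SD, n = 3 each), a difference of -0.39 with a 95% interval of -0.84 to 0.05 (limma adjusted p = 0.468). The difference of double against acd was -0.38 (limma adjusted p = 0.441). Without double replicate 3, Eya1 passed the threshold in both comparisons, at -0.63 against wt (limma adjusted p = 0.0372) and -0.61 against acd (limma adjusted p = 0.0379), in fits that called 12.2% and 13.9% of all genes. Without double replicate 1 the differences were -0.08 against wt and -0.07 against acd, and with the mean of its probe sets they were -0.14 and -0.09, none of which passed. With double replicate 3 as the sole double array, taken to vary as the other genotypes do, the difference against wt was 0.07 (limma adjusted p = 0.939). A second Eya1 probe set was lowest in double replicate 1, at 5.22 against 5.44 to 5.94 in the other 11 embryos. It was highest in double replicate 2, and its double minus wt was 0.03. The remaining Eya1 probe set was not extreme in double replicate 1. The values of both of these probe sets lay in the span not shown to be above background.

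Sall1, a zinc-finger factor of the kidney mesenchyme that is required for ureteric bud invasion, read 7.35, 7.99 and 8.03 in double embryos, 7.89, 7.76 and 8.03 in acd embryos, 7.997, 7.94 and 8.22 in p53 embryos and 7.97, 8.03 and 7.91 in wt embryos. The 3 genotype groups other than double overlapped one another, and double replicate 1 was lowest of the 12 arrays. The difference of double against p53 was -0.26 (95% interval -0.61 to 0.09, limma adjusted p = 0.497). It was -0.04 without double replicate 1 and -0.14 with the mean of the Sall1 probe sets. A second Sall1 probe set did not put double replicate 1 at either end. It read 5.82, 5.85 and 5.88 in double embryos, below all acd values (5.92 to 5.97) and all wt values (6.01 to 6.07). The p53 embryos read 6.03, 5.38 and 6.18, on both sides of these. This probe set was not tested on its own, and its values lay in the span not shown to be above background.

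Osr1, among the earliest factors of intermediate mesoderm, read 8.17, 7.17 and 7.61 in double embryos, 7.47, 7.25 and 7.48 in acd embryos, 7.55, 7.54 and 7.54 in p53 embryos and 7.64, 7.60 and 7.71 in wt embryos. Double replicates 1 and 2 were the highest and the lowest of all 12 arrays, so their mean of 7.65 ± 0.50 (SD, n = 3) combined opposite deviations of 0.52 and -0.48 from the wt mean. All 3 acd and all 3 p53 values lay below all 3 wt values. The difference was -0.25 in acd against wt (95% interval -0.65 to 0.16) and -0.11 in p53 against wt (95% interval -0.51 to 0.30), and neither passed (limma adjusted p = 1.0 for both). The difference of double against wt was 0.00. It was -0.38 when arrays were weighted by how closely they follow their genotype means, with a limma adjusted p of 0.0427. That fit called 13.4% of all genes. The weights of double replicates 1, 2 and 3 were 0.07, 1.61 and 0.25, so the weighted value rests mostly on replicate 2, the lowest array.

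Wt1, a zinc-finger factor of the coelomic epithelium, gonad and kidney mesenchyme, read 6.23, 6.94 and 6.74 in double embryos, 6.82, 6.54 and 6.77 in acd embryos, 6.57, 6.83 and 6.94 in p53 embryos and 6.66, 6.71 and 6.61 in wt embryos. The genotypes overlapped in every comparison. The difference of p53 against wt was 0.12 (95% interval -0.23 to 0.47). Its sole probe set is of the type that the array's suffix gives for sequence shared by several transcripts.

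Pax8, which acts with Pax2 in the nephric lineage, stayed below the array median and read 4.75, 4.71 and 5.25 in double embryos, 4.84, 4.71 and 4.69 in acd embryos, 4.79, 4.56 and 4.65 in p53 embryos and 4.77, 4.65 and 4.70 in wt embryos. Double replicate 3 alone lay above 4.84. A second Pax8 probe set did not show this: it read 3.53, 3.50 and 3.29 in double embryos and 3.31, 3.40 and 3.21 in wt embryos.

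Gdnf, the ligand, read 5.15, 5.40 and 5.50 in double embryos, 5.24, 5.52 and 5.38 in acd embryos, 5.38, 5.46 and 5.27 in p53 embryos and 5.51, 5.51 and 5.38 in wt embryos, overlapping in each comparison. Ret, the receptor tyrosine kinase that binds Gdnf with its co-receptor, read 6.29, 7.03 and 7.08 in double embryos, 7.02, 6.46 and 6.94 in acd embryos, 6.76, 7.17 and 6.81 in p53 embryos and 7.07, 6.99 and 6.88 in wt embryos. Double replicate 1 and acd replicate 2 were the low values, and the remaining 10 lay within 6.76 to 7.17. The deviation of acd replicate 2 from the wt mean of Ret was -0.52, and 0.741% of all tested genes deviated as far in that array. Its Osr1 deviation of -0.40 was matched by 1.80% of genes. Both were singled out after their values were seen. The difference of acd against wt in Ret was -0.18 (95% interval -0.63 to 0.28). In a second Ret probe set, acd replicate 2 read 5.26, nearly level with p53 replicate 1 at 5.27, against 5.31 to 5.48 in wt embryos. Double replicate 1 read 5.38 in it, inside the wt range. The values of this second probe set lay in the span not shown to be above background.

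Nr5a1, the factor that specifies the adrenogonadal primordium, read 5.08, 5.10 and 4.94 in double embryos, 5.07, 5.04 and 5.03 in acd embryos, 4.87, 5.05 and 4.99 in p53 embryos and 5.02, 4.99 and 4.85 in wt embryos. The acd values lay above all wt values, and the closest of them were nearly equal. A second Nr5a1 probe set did not show this: it read 4.28, 4.22 and 4.39 in acd embryos and 4.14, 4.36 and 4.19 in wt embryos. Its double values of 4.05, 4.21 and 4.01 lay below all acd values. Double minus wt was -0.14 in this probe set, against 0.09 in the one that stands for the gene. Nr0b1, an X-linked repressor that acts with Nr5a1, read 4.46, 4.26 and 4.52 in double embryos, 4.66, 4.85 and 4.61 in acd embryos, 4.30, 4.32 and 5.03 in p53 embryos and 4.55, 4.87 and 4.79 in wt embryos. The 3 double values lay below all acd and all wt values, while p53 replicates 1 and 2 were as low, and the genotypes did not differ past the threshold (limma adjusted p = 0.474 against acd and 0.470 against wt). The values of both receptors lay in the span not shown to be above background. Among female embryos alone, of which double and wt had 2 each, Nr0b1 averaged 4.39 in double and 4.83 in wt. Among male embryos, with 1 each in double and wt, it read 4.46 in double and 4.55 in wt, and the acd mean lay 0.15 above male wt.

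**Figure D2:**
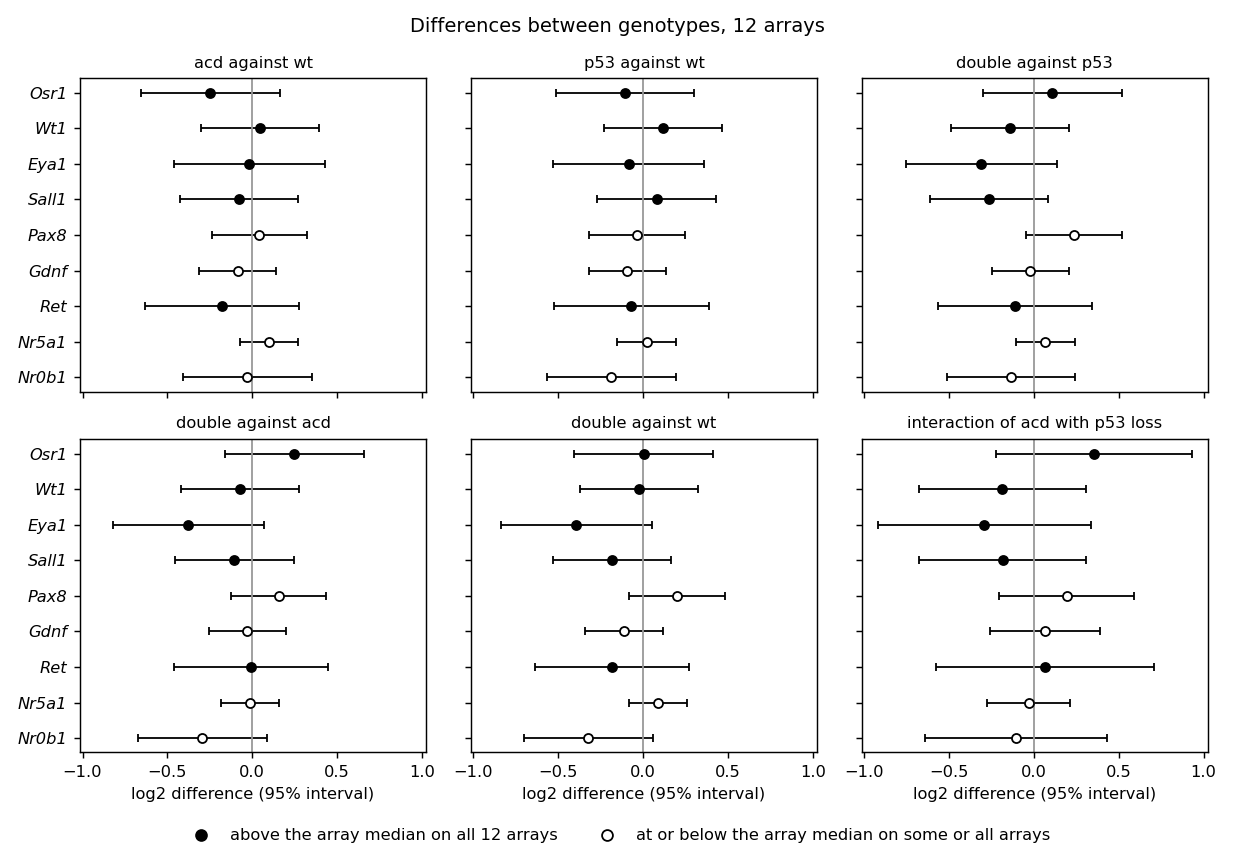
Log2 differences (x axis) of the 9 genes in the 6 comparisons, the genotype named before "against" minus the one after it, with 95% intervals from limma over 12 arrays. Filled symbols mark genes above the array median in all 12 embryos, open symbols the others. All 54 intervals include 0.

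Across the 6 comparisons none of the 54 differences passed limma's adjusted threshold of 0.05, and none had an unadjusted p under 0.05. Few genes were called among all those tested: 0.0148% in acd against wt, 0% in p53 against wt, 0.00741% in double against p53, 0% in double against acd, 0.0148% in double against wt and 0% for the interaction, each of 13500. Among the 5 genes above the array median, differences in acd against wt ran from -0.25 (Osr1) to 0.05 (Wt1), with intervals reaching at most -0.65 and 0.43. In p53 against wt they ran from -0.11 (Osr1) to 0.12 (Wt1). The outer bounds of double against wt were -0.84 (Eya1) and 0.41 (Osr1). The interaction, the difference of double minus p53 less that of acd minus wt, ran from -0.29 (Eya1) to 0.35 (Osr1), with outer bounds of -0.92 and 0.93. With a term for sex the interaction was -0.88 for Eya1, 0.86 for Osr1, -0.62 for Sall1 and -0.59 for Wt1 (limma adjusted p of 0.174 to 0.224), double against acd was -0.67 for Eya1 (limma adjusted p = 0.0893), and acd against wt was -0.50 for Osr1 (limma adjusted p = 0.836). None of the 9 genes passed in any comparison of that fit. All acd and p53 embryos were male, so the sex term rested on the wt and double embryos alone. In both of these genotypes replicate 1 was the sole male. The values with this term therefore carry the deviations of double replicate 1, and are not a separate measure of sex. A p that misses the threshold does not show that the genotypes were alike, and the intervals give the sizes that remain possible.

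Genotype groups did not overlap in 2 of 9 genes in acd against wt (Nr5a1 higher and Osr1 lower), where 17.1% of all genes were apart, and in 1 of 9 in p53 against wt (Osr1 lower), where 6.77% were. None of 9 was apart in double against p53, where 8.29% of all genes were, and Nr0b1 alone was apart in double against acd (11.3% of all genes) and in double against wt (13.2%). These counts are near what all genes gave. Comparisons that share wt or double embryos are not independent. Higher values were found for 3 of 9 genes in each comparison of a mutant with wt and in double against p53, and for 2 of 9 in double against acd. Over all tested genes 46.8% to 48.1% were higher in these comparisons. After repeated quantile normalization the count of acd against wt was 4 of 9, beside 50.5% of all genes. After median centring that of double against wt was 2 of 9, beside 42.3%. The other comparisons kept the same count of the 9. The median difference of the 9 was -0.03 in acd against wt, -0.07 in p53 against wt, -0.11 in double against p53, -0.03 in double against acd and -0.11 in double against wt, beside -0.01 or nearer 0 over all genes tested.

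**Figure D3:**
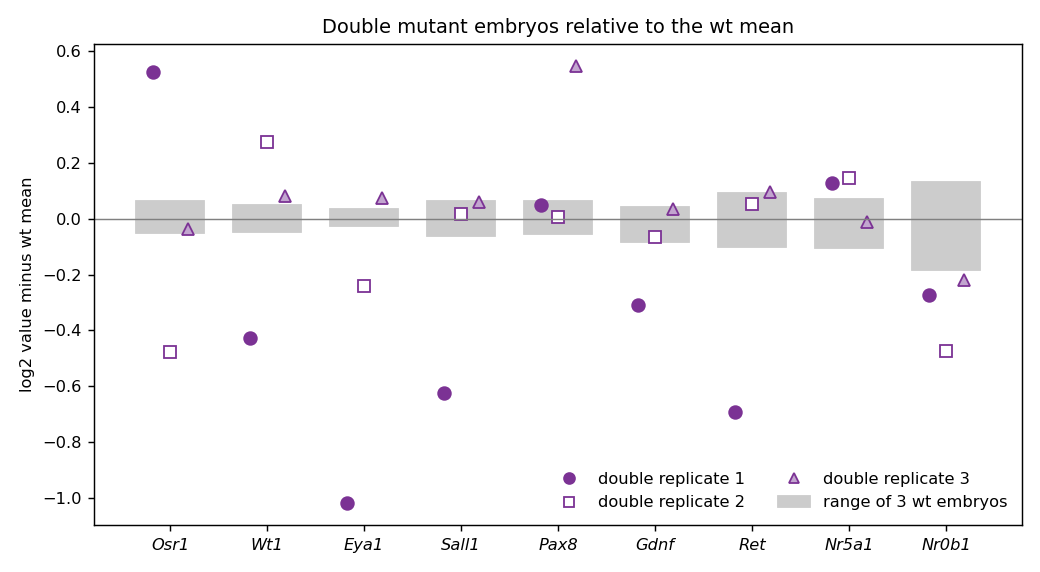
Log2 value minus the wt mean (y axis) for each double mutant embryo and each gene (x axis), with the range of the 3 wt embryos in grey. Double replicate 1 is -1.02 in Eya1, -0.69 in Ret and -0.62 in Sall1 but 0.52 in Osr1.

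The spread lay mainly in the double embryos. The median standard deviation of the 9 genes was 0.36 in double, 0.13 in acd, 0.12 in p53 and 0.06 in wt, beside 0.21, 0.07, 0.10 and 0.06 over all genes. Double replicate 1 was the lowest of 12 arrays for Wt1, Eya1, Sall1, Gdnf and Ret and the highest for Osr1, which is 6 of 9 genes, and 63.0% of all tested genes were at one end in that array. In replicate 2, Osr1 and Nr0b1 were lowest and Nr5a1 highest, where 28.7% of all genes were extreme, and in replicate 3 Pax8 and Eya1 were highest, where 14.7% were. Eya1 in replicate 1, at -1.02 from the wt mean, was matched by 2.90% of tested genes. Without double replicate 1, double against wt was -0.08 for Eya1, -0.26 for Osr1, 0.18 for Wt1, 0.04 for Sall1 and 0.07 for Ret. Female embryos alone gave -0.07 for Eya1, -0.26 for Osr1, 0.18 for Wt1, 0.04 for Sall1 and 0.12 for Ret, double minus wt, which leaves out replicate 1 of both genotypes.

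**Figure D4:**
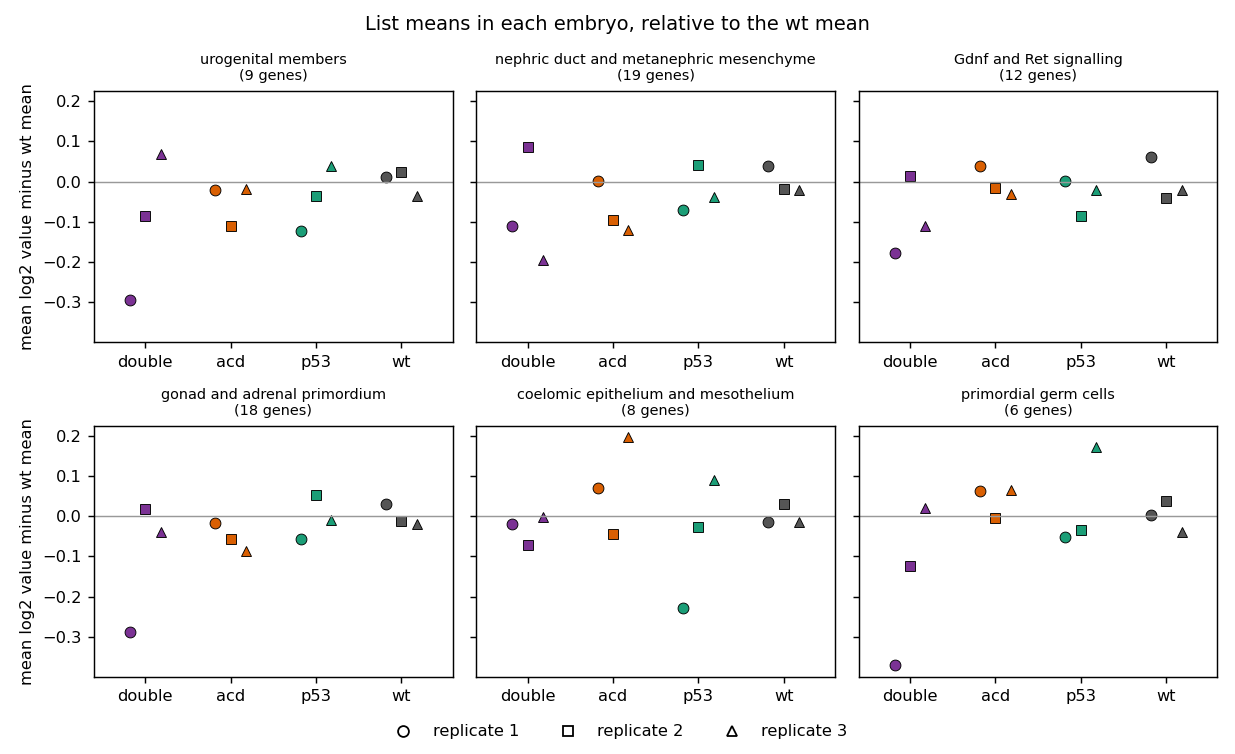
Mean log2 value of a gene list minus its wt mean (y axis) in each embryo by genotype (x axis), for the 9 genes and 5 wider lists, with the number of tested genes in brackets. Double replicate 1 is lowest for the 9 genes (-0.29), the Gdnf and Ret list (-0.18), the gonad and adrenal list (-0.29) and the germ cell list (-0.37), double replicate 3 for the nephric list (-0.19) and p53 replicate 1 for the coelomic list (-0.23).

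Wider lists put the 9 genes beside their pathways: nephric duct and metanephric mesenchyme, Gdnf and Ret signalling, gonad and adrenal primordium, coelomic epithelium and mesothelium, and primordial germ cells. They held 77 genes, of which 60 were tested, and none of the 60 passed in any of the 6 comparisons. Higher values were found for 20 of 60 in acd against wt, 29 in p53 against wt, 20 in double against p53, 21 in double against acd and 18 in double against wt, where 46.8% to 48.1% of all genes were higher. After quantile normalization these counts were 22, 30, 20, 19 and 20, beside 50.5%, 51.1%, 44.8%, 44.3% and 44.7% of all genes. After median centring they were 20, 31, 19, 19 and 17, beside 44.4%, 56.1%, 40.4%, 44.1% and 42.3%. An unadjusted p under 0.05 was found for 3, 0, 8, 11 and 7 of the 60 in the same order, beside 1.77%, 0.719%, 10.7%, 12.6% and 11.1% of all genes.

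The differences named from these lists did not pass, with limma adjusted p of 0.371 or more. Every genotype mean of Sox8, Artn, Gata4, Prdm1, Alpl and Dnd1 lay inside the span not shown to be above background. So did those of Oc90, named further below, and background can compress the differences of these genes. In the nephric and mesenchyme list 6 of 19 genes were higher in acd against wt (median -0.05) and 7 of 19 in double against wt (median -0.12). Lhx1, a homeodomain factor of the nephric duct, read 8.01, 8.85 and 7.20 in double embryos, 7.44, 7.06 and 6.92 in acd embryos, 7.57, 7.70 and 7.06 in p53 embryos and 8.09, 7.84 and 7.57 in wt embryos. Double replicates 1 and 2 lay above all acd embryos and replicate 3 within their range, and the acd embryos lay below all wt embryos. Its difference was 0.88 in double against acd and 1.27 for the interaction (unadjusted p = 0.0223 and 0.0202). Hoxa11, a homeobox gene of the kidney mesenchyme, differed by -0.25 in acd against wt, -0.28 in double against wt and -0.20 in double against p53. Grem1, an antagonist of bone morphogenetic proteins, differed by 0.21 in acd against wt and 0.28 in double against wt. Npnt, a matrix ligand for integrins, differed by -0.34 in double against acd.

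In the Gdnf and Ret list 3 of 12 genes were higher in acd against wt (median -0.03) and 4 of 12 in double against wt (median -0.10). Etv4, a transcription factor induced by Ret, differed by -0.39 in double against p53 and -0.34 in double against wt, and its relative Etv5 by -0.42 in double against acd. Etv4 read 6.42, 7.07 and 7.26 in double embryos, beside a wt mean of 7.26, so replicate 3 did not share the difference from wt. Sox8 differed by 0.26 in acd against wt, -0.50 in double against acd and -0.61 for the interaction. Artn, a ligand related to Gdnf, differed by -0.27 in double against wt, and Sox9 by -0.15 in acd against wt. Gfra1, the co-receptor through which Gdnf reaches Ret, read 7.87, 7.96 and 7.40 in double embryos and 7.64, 7.52 and 7.31 in wt embryos, and was named after its values were seen.

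In the gonad and adrenal list 3 of 18 genes were higher in acd against wt (median -0.06) and 4 of 18 in double against wt (median -0.15). Cyp11a1, Cyp17a1 and Hsd3b1 of this list missed the filter on low values. Star and Mc2r were tested, but their genotype means lay in the span not shown to be above background. Gata4, a factor of the early gonad and heart, differed by 0.31 in acd against wt, -0.42 in double against acd and -0.61 for the interaction. Lhx9, needed for the gonad to form, differed by -0.32 in acd against wt. Map3k4, a kinase that acts in testis determination, differed by -0.40 in double against wt and in double against p53, and Cbx2, a Polycomb protein, by -0.28 in double against p53. Double replicate 1 was the lowest array for both. Map3k4 read 8.82, 9.48 and 9.66 in double embryos, beside a wt mean of 9.72. Cbx2 read 8.05, 8.54 and 8.58, beside a p53 mean of 8.67.

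In the coelomic epithelium and mesothelium list 6 of 8 genes were higher in acd against wt (median 0.06) and 3 of 8 in double against wt (median -0.06). Tcf21, a factor of mesothelium and mesenchyme that is in the gonad and adrenal list too, differed by 0.29 in double against wt, 0.26 in double against p53 and 0.32 in double against acd. Lrrn4 differed by 0.24 in acd against wt and -0.51 in double against acd, Upk3b by 0.18 in acd against wt, and Podxl by -0.23 in double against wt. Podxl read 9.26, 9.10 and 9.65 in double embryos, with replicate 3 above the wt mean of 9.57. In the germ cell list 3 of 6 genes were higher in acd against wt (median 0.04) and 1 of 6 in double against wt (median -0.15). Dppa3, Pou5f1, Prdm14, Dazl and Ddx4 of this list missed the filter on low values. The tested genes include Sox2, which is also in the midbrain-hindbrain and otic list below, so this list is not a measure of germ cells alone. Prdm1, which specifies germ cells, differed by -0.36 in double against wt and -0.55 in double against p53. It read 4.85, 5.46 and 6.13 in double embryos, with replicate 3 above the wt mean of 5.84. Alpl differed by -0.27 in double against wt, Tfap2c by 0.11 in acd against wt and -0.29 in double against acd, and Dnd1 by 0.08 in acd against wt. Alpl read 5.33, 5.61 and 6.05 in double embryos, with replicate 3 above the wt mean of 5.93.

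Lists were also read for other tissues that use the same genes. Enteric and autonomic neural crest, where Ret is also active, had 2 of 8 genes higher in acd against wt (median -0.06) and 5 of 8 in double against wt (median 0.10). Ednrb, a receptor of those cells, differed by -0.11 in acd against wt, 0.27 in double against wt, 0.38 in double against p53, 0.39 in double against acd and 0.49 for the interaction. Th differed by -0.15 in acd against wt and Erbb3 by 0.16 in double against wt. Midbrain-hindbrain boundary and otic vesicle genes, where Pax8 and Eya1 are also active, had 5 of 8 higher in acd against wt (median 0.01) and 2 of 8 in double against wt (median -0.12). Fgf8, the signal of that boundary, differed by -0.29 in double against wt, -0.34 in double against p53 and -0.29 in double against acd. Oc90, an otic vesicle gene, differed by 0.53 in double against wt and 0.26 in acd against wt, and Dlx5 by -0.12 in acd against wt. Oc90 read 6.75, 6.29 and 5.56 in double embryos, with replicate 3 below the wt mean of 5.67. Of the mature kidney, adrenal and germ cell genes 7 were tested, and 4 were higher in double against wt (median 0.01). None of the genes in these lists passed the threshold in any of the 6 comparisons.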

How the data were processed

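The values analysed are log2 signals as deposited: per the series' design text, the authors ran justRMA on the scanner files, which subtracts background, equalises array distributions and summarises probes, and used BRB-ArrayTools 4.4.0 to pick genes. Differences in the total RNA content of embryos are therefore removed from these values. Scanner files were not used here.

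Of 45101 probe sets, 64 were controls and 34945 had 1 gene symbol. Names and promoters came from RefSeq tables (GRCm38.p6). The probe set of highest mean stood for its gene, and genes above an array's 40th percentile in at least 3 of the 12 arrays were tested, 13500 of 18193. limma 3.58.1 in R 4.3.3, tested on simulated data, fitted a mean per genotype to the 12 arrays, with two-sided moderated tests adjusted by Benjamini-Hochberg over all tested genes at 0.05. With 3 embryos against 3 an exact test of 1 gene cannot go below p = 0.1. Where nothing says embryos came from separate litters, p-values measure the spread between these embryos.

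The genes and lists were chosen with earlier results of these data known. The naming rule took all listed genes, Acd and, from each wider list, genes that passed or else up to 2 per comparison with the smallest p. Of these wider-list genes the text gives those of acd against wt and double against wt and, elsewhere, those with an unadjusted p under 0.05, a limit set after the values were seen. The interferon, macrophage, liver, sex and mature-tissue lists are given by counts or means. Alternatives were other normalizations, filters and probe set choices, array weights, a sex term, a replicate block, the genotypes compared alone, and leaving out arrays.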

Additional observations from a re-analysis of the deposited data

How the results depend on the processing

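Over 26 alternative settings, 1359 values of the 9 genes were recomputed: 1255 kept their sign, 103 changed sign without a call, and 1 passed the threshold with the opposite sign, Osr1 in double against wt, at -0.38 under array weights. Many of the kept signs were fixed in advance. The filters, the replicate block and fitting only the genotypes compared leave a difference as it was. Leaving out an array of a genotype outside the comparison does so too. The number of the 9 genes called stayed 0 under every setting, except in double against wt, where it was 1 under array weights, and in leave-one-out fits, where it ran from 0 to 1 in double against acd and in double against wt, Eya1 being called without double replicate 3. No paired structure was taken from replicate numbers: 18 same-numbered pairs correlated at -0.23 to 0.39 in their deviations, 7 of them over 0.1, and 4 of 12 arrays correlated best with their own number. With the replicate block, 0 of the 9 genes were called in any comparison. Counts over all genes moved with the double arrays: without double replicate 3 they were 1756 in double against p53 (1 in the full fit), 1876 in double against acd (0), 1646 in double against wt (2) and 439 for the interaction (0), and under array weights 122, 1777, 1808 and 0. With double replicate 3 as the sole double array the interaction called 25. Double against wt called 0 with only the genotypes compared. The acd against wt count ran from 1 to 3 and that of p53 against wt from 0 to 1. The cause was not tested. The 3 embryos per genotype and the values near the array median for Gdnf, Pax8, Nr5a1 and Nr0b1 limit what these arrays can show.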
